A study of Mus musculus with 12 samples.

Results

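Gfi1 and Gfi1b encode related zinc finger repressors of blood cells, and Kdm1a, Rcor1, Hdac1 and Hdac2 encode the enzymes and the scaffold that these repressors recruit. The 6 genes were found in the deposited count table by gene symbol, each in 1 row, out of 41128 genes in all. They were compared over 12 poly(A) RNA-seq libraries of mouse PreMegEs, bone marrow progenitors of the megakaryocyte and erythroid lineages, in 4 groups of 3 libraries. All mice were 12 to 16 weeks old on a C57BL/6 background, and each library pooled the sorted cells of 3 mice.

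WT libraries came from wild type mice. P2- and P2+ libraries came from Runx1 P1-GFP::P2-hCD4/+ mice, in which 1 Runx1 allele carries a dual knock-in reporter: the distal promoter P1 drives GFP and the proximal promoter P2 drives a truncated human CD4. The sorted cells were positive for GFP, and were negative for human CD4 in P2- and positive in P2+. P2- and P2+ cells therefore share a reporter allele that WT cells lack, and are fractions of the same gate rather than different genotypes. The paper refers to Runx1 haploinsufficiency in cells of these mice, so that P2- and P2+ differ from WT in this as well. KO libraries came from the RUNX1C knockout, which lacks the isoform made from P1 and keeps transcription from P2. In the paper these knockout mice are homozygous P1-GFP/GFP, with GFP driven by P1 on both alleles. Their PreMegEs were not split by P2. The Runx1 count covers transcripts of both promoters, so that it does not check the knockout (370.0 ± 16.1 CPM in WT and 360.0 ± 20.9 CPM in KO, SD, n = 3). CPM are counts relative to the depth of each library, scaled here by the trimmed mean of M-values (TMM). The paper's RNA-seq results describe WT, P2- and P2+ libraries and no KO libraries. None of the sources used here says whether KO libraries were prepared together with the others, so that a batch and the knockout cannot be told apart.

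As background, GFI1 and GFI1B bind DNA through zinc fingers that read an AATC core, and repress through a short N-terminal SNAG domain that resembles the histone H3 tail. The SNAG domain docks in the active site of LSD1, the histone H3 lysine 4 demethylase encoded by Kdm1a. RCOR1 (CoREST) is the scaffold that stabilizes LSD1 on nucleosomes and joins it to the class I histone deacetylases HDAC1 and HDAC2. GFI1B is needed for erythroid and megakaryocyte maturation, whereas GFI1 is best known in granulocyte, lymphoid and stem cells, and both repress their own genes and each other's.

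On GRCm38, Gfi1 (ENSMUSG00000029275) lies on the minus strand of chromosome 5 from 107716657 to 107726036 and Gfi1b (ENSMUSG00000026815) on the minus strand of chromosome 2 from 28609450 to 28621982. Rcor1 (ENSMUSG00000037896) lies on the plus strand of chromosome 12 from 111039351 to 111115901, and Kdm1a (ENSMUSG00000036940) on the minus strand of chromosome 4 from 136550540 to 136602723. Hdac1 (ENSMUSG00000028800) lies on the minus strand of chromosome 4 from 129516104 to 129542713, and Hdac2 (ENSMUSG00000019777) on the plus strand of chromosome 10 from 36974544 to 37001889. In the GENCODE annotation an antisense gene, A430072P03Rik, shares 101 exonic bases with Gfi1, but it had 0 to 3 counts in any library. Rcor1 shares 53 exonic bases with Gm48632, a gene on the same strand, and Kdm1a overlaps Luzp1 on the opposite strand without a shared exonic base.

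Gfi1b was the member whose level differed most between groups among the 5 members with substantial counts, so the 250 bases before its annotated start are shown. They lie at chr2:28621983-28622232 on GRCm38.p6, are read on the minus strand from the RefSeq promoter table, and overlap no annotated exon. Capitals mark the GFI core AATC or its reverse complement GATT, and the GATA motif GATAA.

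Gfi1b promoter: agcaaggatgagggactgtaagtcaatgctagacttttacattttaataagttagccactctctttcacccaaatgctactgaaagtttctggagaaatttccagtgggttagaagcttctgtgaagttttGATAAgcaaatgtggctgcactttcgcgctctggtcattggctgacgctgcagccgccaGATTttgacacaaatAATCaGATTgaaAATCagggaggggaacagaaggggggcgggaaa

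On both strands the stretch held 4 matches to AATC, all between 60 and 30 bases before the start, and 1 match to GATAA. Of 32851 promoter stretches of the same length, 69.0% held at least 1 AATC, 7.04% held at least 4, and 22.6% held GATAA. The RUNX motif TGTGGT, which 14.0% of the stretches held, had no match here. The promoter table matched 5 of the 6 members, all but Hdac1. The Kdm1a stretch and 1 of 2 Gfi1 stretches held 1 AATC each, the Hdac2 stretch held 1 TGTGGT, and the Rcor1 stretch held none of the 3 motifs. A match gives letters in a window and does not show binding.

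Hdac1 is shown for another reason: much of its sequence also occurs elsewhere in the genome. Gm10093, an intron-less copy annotated as a processed pseudogene on the plus strand of chromosome 17 from 78491582 to 78493025, aligned to the Hdac1 transcript over 1444 bases with 9 mismatches and 0 gaps, an identity of 99.4%. All 9 mismatches fell in the coding part, and the longest identical run was 450 bases. The stretch of 75 bases with most mismatches, 6, is printed for each gene with the differing bases in capitals. For Hdac1 it lies at chr4:129522975-129523049 on the minus strand, and for Gm10093 at chr17:78491989-78492063 on the plus strand, both on GRCm38.

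Hdac1: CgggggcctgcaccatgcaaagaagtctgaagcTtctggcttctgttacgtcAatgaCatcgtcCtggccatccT

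Gm10093: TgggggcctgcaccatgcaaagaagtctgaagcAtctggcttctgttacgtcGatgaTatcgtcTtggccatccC

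Reads were 75 bases long, and 51.2% of the 1964 windows of 75 bases along the Hdac1 transcript occur unchanged in Gm10093. Counted separately for each gene, 5.09% occur in AC125456.1 and 2.34% in Gm4864. The other 5 members shared no such window with another gene.

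Libraries held 10726098 to 14445026 counts (median 12284879). Replicates of a group differed beyond counting noise in each pair, and no library looked like a repeat of another. Replicate 2 of P2- and of P2+ stood apart from the other libraries of their groups by immediate early genes, with Egr1 at 3014 and 1324 CPM against 8.08 to 27.2 CPM in the other 4, and replicate 3 of WT was the highest WT library for Egr1. Markers of the gate were expressed in each group (Kit 815 to 1088 and Slamf1 36.1 to 59.1 mean CPM). Of 4 genes whose proteins the gate holds low or absent, Ly6a and Fcgr3 had group means of 0.541 to 3.31 CPM. Eng had 104 to 128 CPM, and Itga2b had 50.7 CPM in P2-, 115 in KO, 156 in WT and 283 in P2+. Summed erythroid markers, 7 genes, ran from 1923 to 2407 CPM in P2-, 1186 to 1329 in WT, 195 to 262 in P2+ and 1908 to 2153 in KO. Summed megakaryocyte markers, also 7 genes, ran from 119 to 171 CPM in P2-, 542 to 625 in WT, 840 to 1276 in P2+ and 308 to 347 in KO. Granulocyte and monocyte markers, 11 genes, summed to 44.0 to 59.8 CPM in P2-, 118 to 288 in WT, 152 to 369 in P2+ and 62.4 to 113 in KO. In these bulk libraries, a smaller share of cells of a type cannot be told apart from less RNA per cell. The part of these marker differences in the results for the 6 genes was not tested.

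Per kilobase of exon, and with the row of Hdac1 taken alone, Gfi1b was the most abundant of the 6 mRNAs in each group and Gfi1 the least. In WT the mean level was 75.7 ± 2.78 RPKM for Gfi1b and 52.1 ± 2.39 RPKM for Rcor1 (CPM divided by exonic kilobases, SD, n = 3). Hdac2 followed at 17.7 ± 0.156 RPKM, Hdac1 at 10.7 ± 0.193 RPKM, Kdm1a at 7.01 ± 0.308 RPKM and Gfi1 at 0.418 ± 0.125 RPKM. By these values the scaffold mRNA was several times as abundant per length as the mRNA of the demethylase it binds. The authors aligned reads to the genome with Bowtie2, which does not split them over introns. Loss of reads across exon junctions may differ between genes, and its part in this order was not tested. With the longest transcript as the length in place of all exons, the WT values became 12.0 RPKM for Kdm1a, 18.1 RPKM for Hdac1 and 24.3 RPKM for Hdac2, with the same order. The place of Hdac1 in this order depends on its copy. With the counts of Gm10093 added and divided by the exonic length of Hdac1, an alternative chosen after seeing the data, Hdac1 stood at 63.7 RPKM in WT, between Gfi1b and Rcor1. In P2+ it stood at 71.6 RPKM, above Gfi1b at 57.6 RPKM. Over the longest transcript the sum was 108 RPKM in WT, and it exceeded Gfi1b in WT, P2- and P2+ but not in KO.

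Gfi1b, the repressor of the erythroid and megakaryocyte lineages, was highest in KO, followed by P2-, WT and P2+. Its level was 210, 226 and 218 CPM in the KO libraries and 187, 160 and 191 CPM in P2-. It was 133, 142 and 141 CPM in WT and 95.1, 87.2 and 134 CPM in P2+. The libraries of KO, P2- and WT did not overlap each other. Replicate 3 of P2+, at 134 CPM, lay within the WT range, and the other P2+ libraries lay below it.

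**Figure D1:**
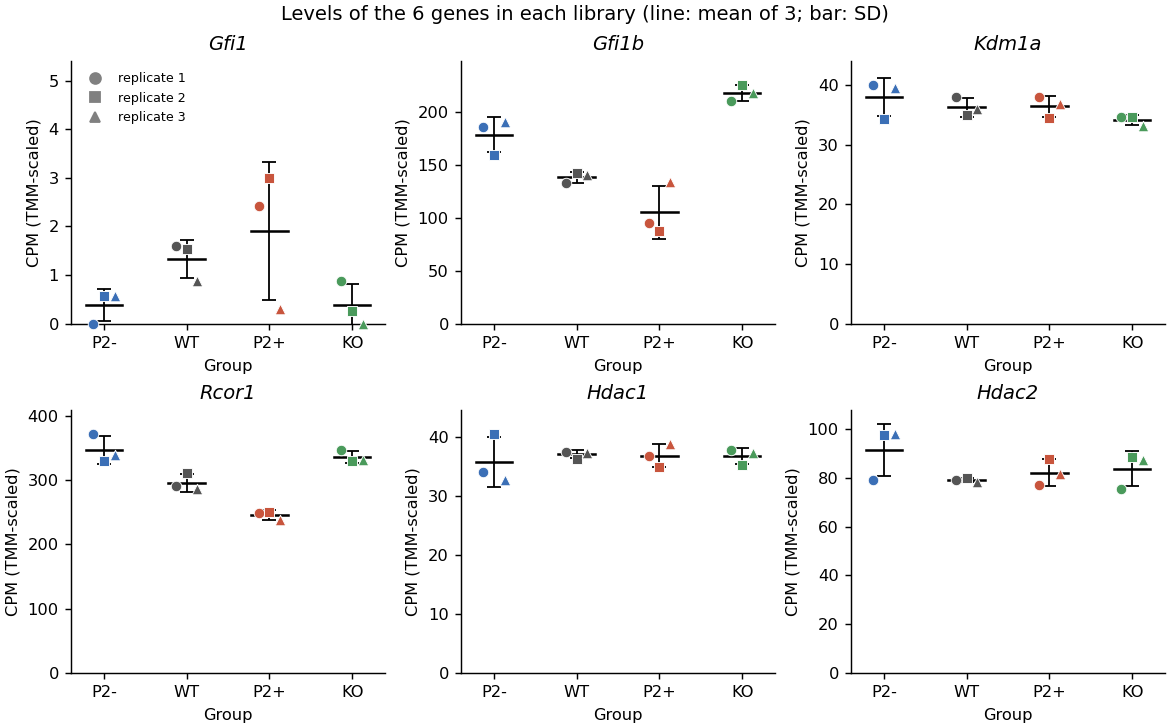
TMM-scaled CPM of the 6 genes (vertical axes from 0, a scale of its own per gene) in the 4 groups. Points are libraries, with a shape for each replicate number, lines the means of 3 libraries and bars the SD, cut at 0 for Gfi1 in KO. Gfi1b falls from KO (210 to 226 CPM) to P2+ (87.2 to 134 CPM), Rcor1 is lowest in P2+, and Kdm1a, Hdac1 and Hdac2 lie close together in all groups.

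Between the fractions of the reporter mice, Gfi1b was lower in P2+ than in P2- by 40.9% (95% interval 24.7 to 53.6% lower; log2 fold change -0.76, SE 0.15, adjusted p = 0.00473; edgeR quasi-likelihood test, Benjamini-Hochberg over 12836 genes). The reduction was present in 3 of 3 pairs of same-numbered libraries, with log2 ratios of -0.97, -0.87 and -0.51. Among the P2+ libraries, leaving out replicate 3 moved the log2 fold change to -0.96, and leaving out replicate 2 moved it to -0.63. Without replicate 2 of both fractions it was -0.70 with an adjusted p of 0.000928. The erythroid marker sum was lower and the megakaryocyte marker sum higher in P2+ than in P2-, with all 7 genes of each list called.

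Relative to WT, Gfi1b was higher in P2- by 30.3% (log2 fold change 0.38, SE 0.08, adjusted p = 0.0120 in edgeR), a call that was lost without replicate 1 of WT (adjusted p = 0.0624). The lower level in P2+ than in WT did not pass (log2 fold change -0.39, 95% interval -0.69 to -0.08, adjusted p = 0.0809 in edgeR). Leaving replicate 3 of P2+ out of this comparison gave -0.60 and an adjusted p of 0.00251. On the log2 scale, WT lay 46.7% ± 6.82 (SD, n = 3) of the way from the mean of P2- to that of P2+. KO lay outside that span on the side of P2-, at -36.9% ± 6.53. On the linear CPM scale these positions were 55.1% and -53.2%.

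In the RUNX1C knockout, Gfi1b was 57.0% higher than in WT (95% interval 43.1 to 72.2%; log2 fold change 0.65, SE 0.06, adjusted p = 1.43e-06 in edgeR). Leaving out any 1 of the 6 libraries gave log2 fold changes of 0.62 to 0.68. Against P2+, Gfi1b was 2.05-fold higher in KO (log2 fold change 1.04, SE 0.14, adjusted p = 0.000189), the only difference past 2-fold of a member that passed the filter on low counts. Against P2-, its nearest neighbour in the order, all KO libraries were higher than all P2- libraries, but the difference did not pass the test (log2 fold change 0.27, 95% interval 0.10 to 0.45, adjusted p = 0.122). With DESeq2 this difference of Gfi1b passed (adjusted p = 0.0430), where 3.89% of all genes were called.

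Gfi1, the paralogue best known outside these lineages, was at the edge of detection. The libraries held 23, 18 and 12 counts of Gfi1 in WT, 0, 6 and 8 in P2-, 29, 43 and 4 in P2+ and 10, 3 and 0 in KO. Replicate 3 of P2+ was far below the other P2+ libraries, within the range of P2- and KO. The same library had the highest Gfi1b level of P2+. Counts of 0 in replicate 1 of P2- and replicate 3 of KO allow up to 0.239 and 0.273 CPM (3 counts of each total).

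Summed over each group's libraries, Gfi1 stood at 1.33 CPM in WT (exact Poisson 95% interval 0.995 to 1.74, which covers counting error only) and 1.93 CPM in P2+ (1.52 to 2.41). In P2- it stood at 0.375 CPM (0.205 to 0.630) and in KO at 0.381 CPM (0.203 to 0.652). Gfi1 reached the filter of 1 CPM in 3 libraries only in P2+ against WT, where it was not called (log2 fold change 0.53, SE 0.64, adjusted p = 0.635 in edgeR). Leaving out 1 library moved that value from 0.02 without replicate 2 of P2+ to 1.02 without replicate 3 of P2+. Without the filter, the log2 fold change was 2.30 in P2+ against P2- (adjusted p = 0.0744) and -1.79 in KO against WT (adjusted p = 0.0971). Only KO against P2+ passed in that setting (-2.30, adjusted p = 0.0292), and it did not pass in a fit over all 12 libraries (adjusted p = 0.0689). Granulocyte and monocyte marker sums were also higher in P2+ and WT than in P2- and KO.

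Rcor1, the scaffold, had 372, 331 and 340 CPM in P2-, 347, 330 and 332 CPM in KO, 291, 312 and 286 CPM in WT and 249, 251 and 238 CPM in P2+. P2+ did not overlap any other group, and P2- and KO overlapped each other. Rcor1 was 29.1% lower in P2+ than in P2- (95% interval 20.4 to 36.8% lower; log2 fold change -0.50, SE 0.07, adjusted p = 0.000940 in edgeR), and lower in 3 of 3 pairs, with log2 ratios of -0.58, -0.40 and -0.52. It was 16.7% lower in P2+ than in WT (log2 fold change -0.26, SE 0.07, adjusted p = 0.0356 in edgeR). This call was lost when replicate 1 or 3 of P2+, or any 1 WT library, was left out (adjusted p 0.0535 to 0.135), and with edgeR's exactTest (adjusted p = 0.152).

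Rcor1 was 35.8% higher in KO than in P2+ (log2 fold change 0.44, SE 0.06, adjusted p = 0.000326 in edgeR). The higher levels in KO than in WT (log2 fold change 0.18, 95% interval 0.05 to 0.30, adjusted p = 0.0532) and in P2- than in WT (0.24, 0.07 to 0.42, adjusted p = 0.0604) missed the threshold, although neither pair of groups overlapped. KO and P2- differed by a log2 fold change of -0.06 (95% interval -0.21 to 0.09, adjusted p = 0.721). WT lay 46.2% ± 13.2 of the way from P2- to P2+, and KO lay 9.25% ± 7.84 of the way.

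**Figure D2:**
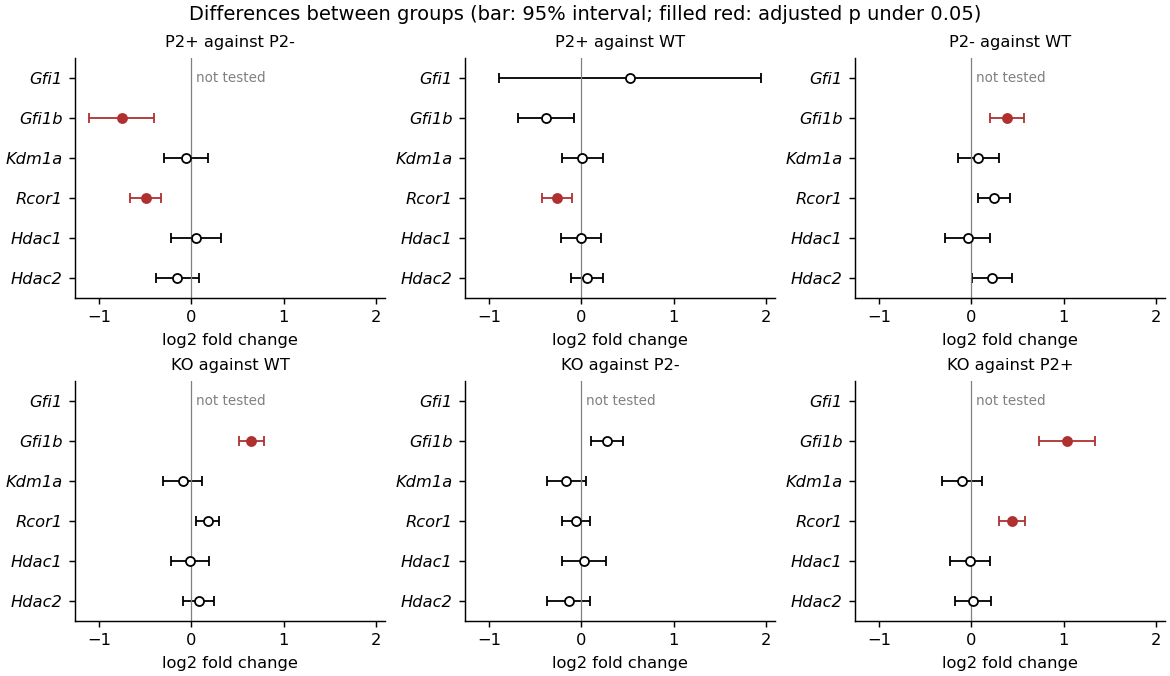
Log2 fold changes of the 6 genes (horizontal axis) in each of the 6 comparisons, with 95% intervals from edgeR; filled red points have an adjusted p under 0.05. Gfi1b and Rcor1 hold every filled point, with Gfi1b at -0.76 in P2+ against P2- and 1.04 in KO against P2+. Gfi1 was tested in P2+ against WT only.

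Kdm1a, the demethylase, had 33.1 to 40.0 CPM over all 12 libraries, a level at which no comparison was called. Its group means were 37.9 ± 3.21 CPM in P2-, 36.4 ± 1.73 in P2+, 36.3 ± 1.59 in WT and 34.1 ± 0.864 in KO (SD, n = 3). In P2+ against P2- the log2 fold change was -0.06 with a 95% interval from -0.29 to 0.18, which allows a reduction of up to 18.4% or a rise of up to 13.4%. KO against P2- gave the largest difference of the 6 comparisons (-0.16, 95% interval -0.38 to 0.05, adjusted p = 0.453 in edgeR). All KO libraries (33.1 to 34.6 CPM) lay just below all WT libraries (34.9 to 38.0 CPM), and that difference did not pass (-0.09, 95% interval -0.30 to 0.12, adjusted p = 0.598).

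Hdac2, a deacetylase of the complex, had 79.2, 97.4 and 98.0 CPM in P2-, 77.0, 87.8 and 81.5 in P2+, 75.4, 88.6 and 87.4 in KO and 78.9, 79.9 and 78.5 in WT. Replicates 2 and 3 of P2- were the highest of all 12 libraries, but replicate 1 of P2- lay within the WT range, and every pair of groups overlapped. P2- against WT came nearest to a call (log2 fold change 0.22, 95% interval 0.01 to 0.44, adjusted p = 0.145 in edgeR), and it passed without P2- replicate 1 (0.32, adjusted p = 0.0333). In P2+ against P2- the log2 fold change was -0.15 (95% interval -0.38 to 0.08, adjusted p = 0.278 in edgeR). Hdac2 was lower in P2+ in 3 of 3 pairs of same-numbered libraries, with log2 ratios of -0.04, -0.15 and -0.27, and the fit with the replicate block did not pass (adjusted p = 0.0920).

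Hdac1, the other deacetylase, had 408 to 539 counts per library, or 32.6 to 40.4 CPM, and no comparison was called. Its copy Gm10093 held 1940 to 3057 counts per library, and Hdac1 made up 14.1 to 18.1% of the 2 rows together. The study's methods name Bowtie2 with default settings, which report a single alignment per read, but how the counting treated reads that match both loci is not given in the sources used here. Bowtie2 also does not split reads over introns, so reads across Hdac1 exon junctions can match in full only at an intron-less copy. The part of such reads in the counts of Gm10093 was not tested. A level of Hdac1 taken from its own row is therefore uncertain. Over the summed counts of each group, Gm10093 had 4.81 times the Hdac1 counts in KO, 4.92 in WT, 5.31 in P2- and 5.72 in P2+.

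With the counts of Hdac1 and Gm10093 added up, an alternative chosen after seeing the data, the means were 247 ± 1.17 CPM in P2+, 224 ± 11.9 in P2-, 219 ± 13.2 in WT and 213 ± 0.706 in KO. The sum was lower in KO than in P2+ (log2 fold change -0.22, SE 0.06, adjusted p = 0.0162 in edgeR), whereas the row of Hdac1 alone gave -0.01 there (adjusted p = 0.928). In P2+ against P2- the sum gave 0.15 (95% interval -0.02 to 0.31, adjusted p = 0.146) and the row alone 0.05. The other 4 comparisons of the sum were not called.

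**Figure D3:**
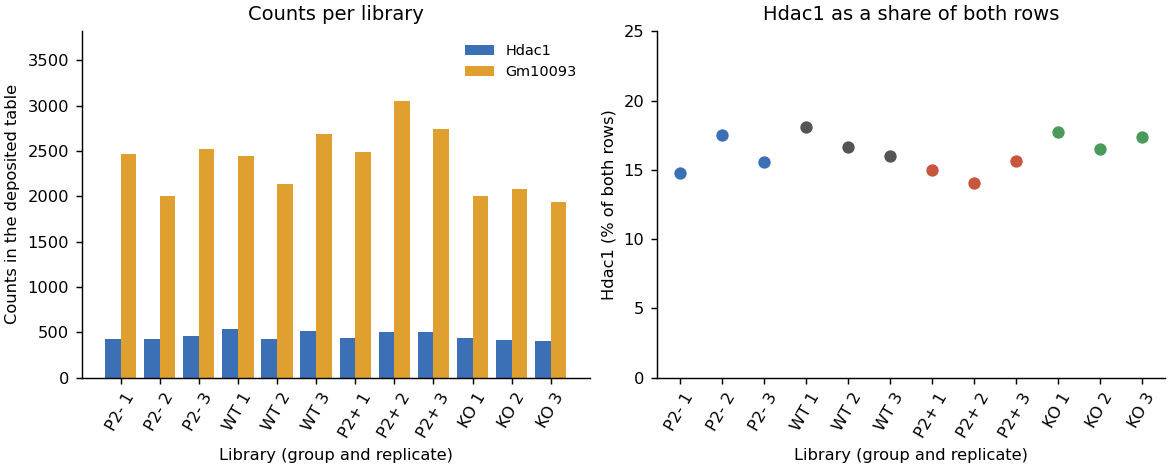
Left, counts of Hdac1 (blue) and of its near-identical copy Gm10093 (yellow) in each of the 12 libraries, on an axis from 0; right, Hdac1 as a percentage of both rows, with points coloured by group. Gm10093 held 1940 to 3057 counts per library against 408 to 539 for Hdac1, and the share of Hdac1 stayed between 14.1 and 18.1%.

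Counted over the members, 0 rose and 2 fell in P2+ against P2-, of 5 tested, where 20.1% of all tested genes were higher and 17.0% lower. In P2+ against WT, 0 rose and 1 fell of 6 tested (9.45% and 7.07% of all genes). In P2- against WT, 1 rose and 0 fell of 5 (6.85% and 9.60%; 41.6% of all calls were higher, or 27.7% with total count scaling), and in KO against WT, 1 rose and 0 fell of 5 (6.18% and 8.76%). In KO against P2-, none was called of 5 tested with edgeR (1.33% and 0.278%, or 203 genes in all, and 42 to 409 genes with 1 library left out), 1 with DESeq2 (3.89% of all genes), and 1 had an unadjusted p under 0.05 (15.5% of all genes). In KO against P2+, 2 rose and 0 fell of 5 (16.7% and 20.3%).

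Members whose libraries did not overlap between groups numbered 2 of 5 tested in P2+ against P2- (49.9% of all tested genes), 1 of 6 in P2+ against WT (35.5%) and 2 of 5 in P2- against WT (34.7%). They numbered 3 of 5 in KO against WT (31.6%), 1 of 5 in KO against P2- (21.2%) and 2 of 5 in KO against P2+ (50.4%). These comparisons share groups, so that their counts are not independent.

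Over the 12 libraries, the log2 CPM of Rcor1 followed that of Gfi1b (Pearson r = 0.84), and Gfi1 ran the other way (r = -0.76). The coefficients between Gfi1b and Kdm1a, Hdac1 and Hdac2 were -0.13, -0.11 and 0.22. The 5 genes most like Gfi1b, of 9528 with a mean of at least 10 CPM, were Ltbp1 (r = 0.97), Lpcat3 (0.96), Cnnm3 (0.96), Epn1 (0.95) and Fam134a (0.95). For Gfi1 they included Ss18 (0.84), 1600014C10Rik (0.83), 2610015P09Rik (0.82) and Dpagt1 (0.82), which rest on the 0 to 43 counts of Gfi1 per library. The points share the 4 groups and the library scaling, so that the coefficients describe these libraries only.

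The 12 further genes of the LSD1-CoREST complex and its partners were paralogues of the members, accessory subunits and corepressors. In P2+ against P2-, 4 of the 12 tested rose and 1 fell, where 20.1% of all tested genes rose and 17.0% fell, and the median log2 fold change was -0.12 against -0.02 over all genes. Rcor2, a paralogue of Rcor1, had 8.04, 8.33 and 10.1 CPM in P2+ and 3.42, 3.53 and 2.53 CPM in P2-, a rise opposite in sign to that of Rcor1 (log2 fold change 1.49, SE 0.23, adjusted p = 0.00122 in edgeR). Ctbp2, a corepressor that joins CoREST complexes, rose (0.72, adjusted p = 0.00258), as did Phf21a, which reads unmethylated histone H3 lysine 4 (0.66, adjusted p = 0.000333), and Gse1 (0.33, adjusted p = 0.0450). The single gene that fell, named after its value was seen, was Zmym3 (-0.24, adjusted p = 0.0262). With the replicate number as a block, 9 of the 12 were called, 4 higher and 5 lower, but the block also raised the calls over all genes, to 25.9% higher and 24.8% lower. With edgeR's exactTest 3 were called, all higher (18.9% of all genes higher and 14.1% lower). Without replicate 2 of both fractions 4 were called, all higher (20.3% of all genes higher and 16.8% lower). Without replicate 2 or 3 of P2+ or replicate 1 of P2-, 3 were called, all higher, where 28.6 to 34.6% of all genes were called. The calls of Gse1 and Zmym3 were the ones lost. In edgeR the call of Zmym3 was also lost without P2+ replicate 1 (adjusted p = 0.0864) or P2- replicate 2 (adjusted p = 0.0818). That of Gse1 was also lost without P2- replicate 3 (adjusted p = 0.138).

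Per length, Rcor1 was the main CoREST mRNA in each group. Rcor2 stood at 2.79 ± 0.346 RPKM in P2+, 1.0 ± 0.174 in P2-, 3.05 ± 0.442 in WT and 1.53 ± 0.108 in KO. Rcor3, the remaining paralogue, stood at 2.65 to 2.93 RPKM in the group means over all its exons and at 9.53 to 10.5 RPKM over its longest transcript, where it was above Rcor2 in each group (1.12 to 3.41 RPKM). Rcor1 made up 93.5 to 94.6% of the summed RPKM of the 3 paralogues in P2- libraries, 92.6 to 93.7% in KO, 89.3 to 90.8% in WT and 86.5 to 89.2% in P2+. Over the longest transcripts these shares were 82.9 to 86.0% in P2-, 82.0 to 84.8% in KO, 78.8 to 81.1% in WT and 72.9 to 77.6% in P2+. With either length, the P2+ and WT ranges lay below the P2- and KO ranges without overlap.

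In KO against WT, 0 of the 12 rose and 2 fell (6.18% and 8.76% of all tested genes), with a median log2 fold change of -0.04 against -0.00 over all genes. Rcor2 fell to 4.97, 4.46 and 5.10 CPM from 8.54, 11.2 and 9.12 CPM in WT (log2 fold change -0.99, SE 0.21, adjusted p = 0.00334 in edgeR), and Gse1 fell by 0.35 (adjusted p = 0.000556). Rcor2 was also lower in P2- than in WT (-1.60, adjusted p = 0.00151), but not called in P2+ against WT (-0.12, 95% interval -0.55 to 0.32).

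**Figure D4:**
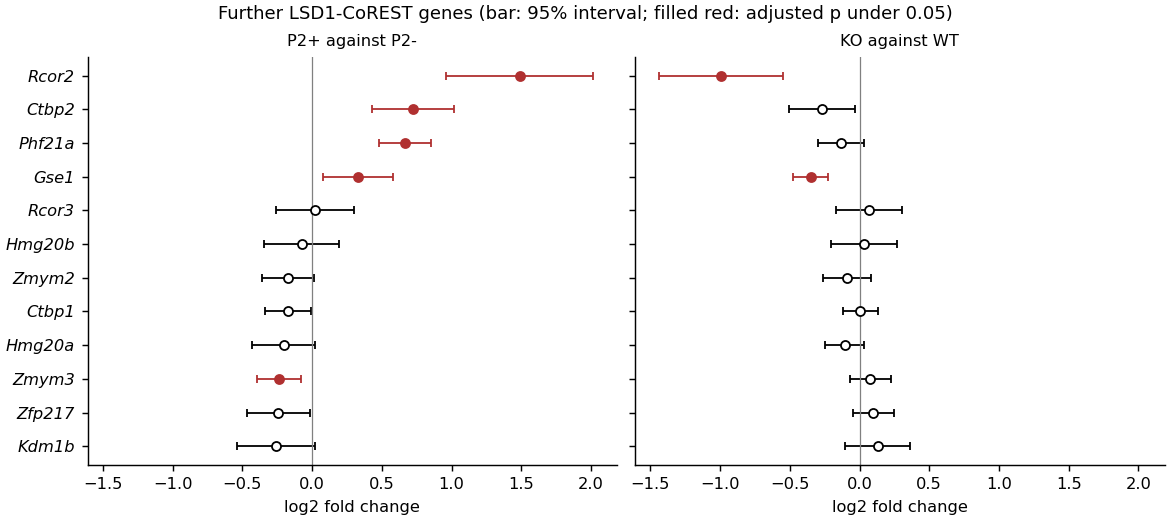
Log2 fold changes with 95% intervals from edgeR for 12 further LSD1-CoREST genes (rows, ordered by the left panel) in P2+ against P2- (left) and KO against WT (right); filled red points have an adjusted p under 0.05. Rcor2 has the largest change in each panel, 1.49 on the left and -0.99 on the right, and most other genes lie near 0.

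For the other class I deacetylase complexes (NuRD, Sin3 and NCoR), 17 genes were followed and all were tested. In P2+ against P2-, 0 rose and 3 fell (20.1% and 17.0% of all tested genes), so that the share that fell was near that of all genes, and the median log2 fold change was -0.12. Mbd2, a methyl-DNA binding subunit of NuRD, fell by 0.73 (adjusted p = 0.000433 in edgeR), Gatad2a by 0.29 (adjusted p = 0.0114) and Mta2 by 0.24 (adjusted p = 0.0287), both also of NuRD. With the replicate block, 1 rose and 5 fell (25.9% and 24.8% of all genes), and with edgeR's exactTest 1 fell (14.1% of all genes). Without P2+ replicate 1, 1 fell (12.6% of all genes). The call of Mta2 was also lost without P2+ replicate 3, P2- replicate 1 or P2- replicate 2. In KO against WT 0 of the 17 were called by edgeR or DESeq2, with a median of -0.01. The 7 other SNAG domain factors (Snai, Insm and Scrt genes) had at most 7 counts in any library and were not tested in any comparison.

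Of 21 genes reported as targets of GFI1 or GFI1B, 19 were tested in P2+ against P2-, and 8 rose and 1 fell (20.1% and 17.0% of all tested genes). Their median log2 fold change was 0.995, against -0.02 over all genes. Meis1, a TALE homeobox gene, had 375.8, 466.5 and 446.5 CPM in P2+ and 107.4, 132.0 and 128.6 CPM in P2- (log2 fold change 1.81, SE 0.11, adjusted p = 8.43e-06 in edgeR), without overlap of the fractions. Of the others, the survival gene Bcl2l1 rose by 1.64 (adjusted p = 2.29e-05), the cytokine gene Csf1 by 1.62 (adjusted p = 0.00223) and Rgs18, a regulator of G protein signalling, by 1.44 (adjusted p = 2.73e-06). The gene that fell, named after its value was seen, was Myc (-0.98, adjusted p = 0.000301). With the replicate block 12 rose and 3 fell (25.9% and 24.8% of all genes), and without replicate 2 of both fractions 11 rose and 3 fell (20.3% and 16.8%).

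In KO against WT, 18 of the 21 were tested, and 0 rose and 8 fell (6.18% and 8.76% of all tested genes), with a median log2 fold change of -0.62 against -0.00 over all genes. Il7r, a lymphoid receptor, had 43, 22 and 47 counts in WT and 4, 3 and 5 in KO (log2 fold change -2.95, SE 0.50, adjusted p = 0.000503 in edgeR). Il7r passed the filter on low counts only through the WT libraries, where it was high, and no longer passed it without any 1 of them. Its call, and its place among the 8 that fell, therefore depend on that filter and are no separate support. Elane, neutrophil elastase, fell by 2.34 (adjusted p = 0.00219), the immediate early gene Egr1 by 1.33 (adjusted p = 0.00593) and the chemokine receptor Cxcr4 by 0.82 (adjusted p = 0.000247). Egr1 stood at 98.3 CPM in WT replicate 3 against 27.1 and 42.6 CPM in the other WT libraries and 18.3 to 24.8 CPM in KO, and without that library it fell by 0.64 (adjusted p = 0.0194). Elane, Cebpe, Irf8 and Il7r, 4 of the 21, are also in the marker lists used here, for granulocytes, monocytes or lymphoid cells. Whether others of the 21 mark a lineage outside these lists was not tested. In the marker lists themselves, 8 of 10 tested granulocyte and monocyte genes, 4 of 6 lymphoid, 3 of 3 mast cell and basophil and 4 of 5 stem cell genes rose in P2+ against P2-, and none of these fell. In KO against WT, 7 of 10 granulocyte and monocyte genes, 2 of 7 lymphoid and 2 of 4 stem cell genes fell, whereas 2 of 2 mast cell and basophil genes rose. Of the 7 erythroid markers 6 rose in KO against WT, and of the 7 megakaryocyte markers 6 fell (6.18% and 8.76% of all tested genes). The part of these markers in the target gene results was not tested.

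**Figure D5:**
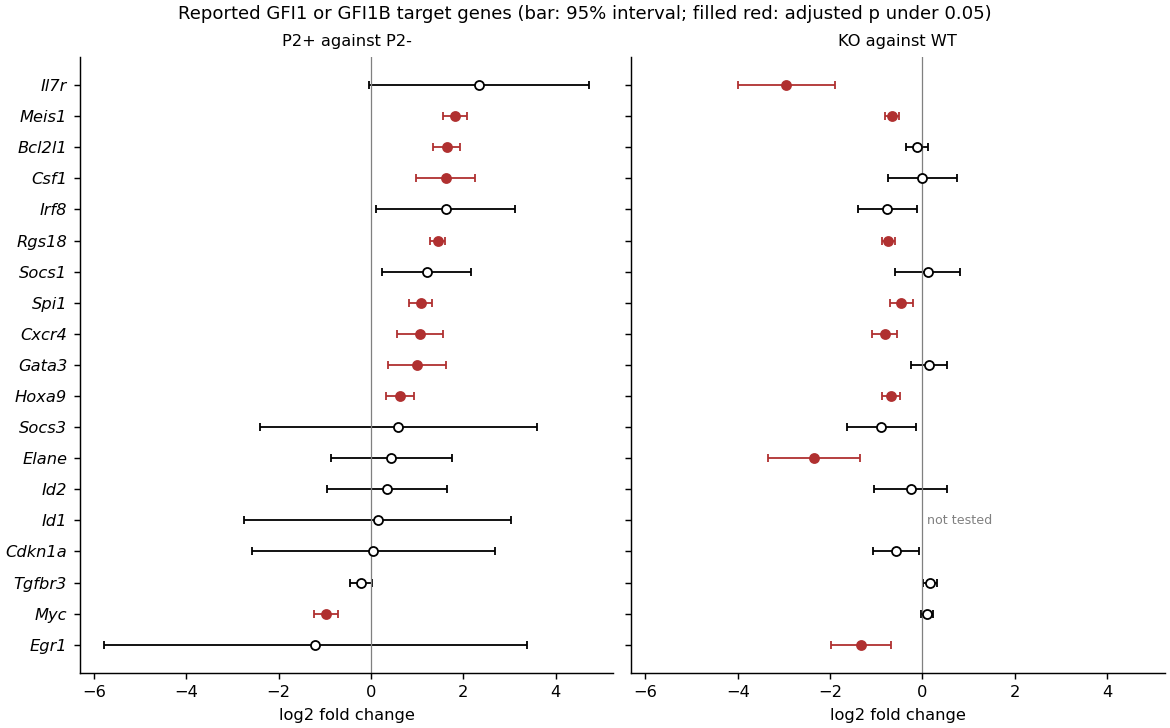
Log2 fold changes with 95% intervals from edgeR for the reported GFI1 or GFI1B target genes tested (rows, ordered by the left panel) in P2+ against P2- (left) and KO against WT (right); filled red points have an adjusted p under 0.05. Of the filled points, 8 of 9 lie above 0 on the left, up to 1.81 for Meis1, and 8 of 8 below 0 on the right.

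The 10 erythroid and megakaryocyte partner factors were tested throughout, and in P2+ against P2- 4 rose and 3 fell (20.1% and 17.0% of all tested genes), with a median log2 fold change of 0.08. Klf1, the erythroid Kruppel-like factor, fell by 2.71 (adjusted p = 1.31e-06 in edgeR) and the GATA1 complex cofactor Ldb1 fell to 0.352 times its P2- level (adjusted p = 1.54e-05). Fli1, an Ets factor of megakaryocytes, rose by 1.93 (adjusted p = 1.32e-05), and Runx1, whose promoter use defined the fractions, by 1.59 (adjusted p = 2.34e-06). In KO against WT 3 rose and 2 fell (6.18% and 8.76% of all tested genes), with a median of 0.00, and without KO replicate 3, 2 rose and 1 fell (3.64% and 5.77%). Klf1 rose by 0.69 (adjusted p = 3.85e-07), Ldb1 by 0.31 (adjusted p = 0.00637, or 0.0705 without KO replicate 3) and Gata1, which shares many sites with GFI1B, by 0.27 (adjusted p = 0.00407), whereas Fli1 fell by 0.65 (adjusted p = 3.18e-06). The other gene that fell was Gata2 (-0.19, adjusted p = 0.0397), whose call was lost without any 1 KO library and without WT replicate 2 or 3.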

How the data were processed

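RNA from flow-sorted PreMegEs was made by the authors into strand-specific poly(A) libraries and sequenced as paired reads of 75 bases. The authors aligned reads with Bowtie2 (default settings) to the mouse genome with Ensembl annotation (GRCm38) and counted them per gene with featureCounts of Rsubread; whether the counting used strand, and how it treated reads with several matches, is not given in the sources used here. The deposited table holds raw counts per gene for 12 libraries, with no row that names no gene.

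Groups came from the sample titles. TMM-scaled CPM used all 12 libraries, and RPKM divided them by the exonic length in the GENCODE annotation. Each comparison was fitted on its 6 libraries with the quasi-likelihood F-test of edgeR 4.0.16 (R 4.3.3) over genes that reached 1 CPM in 3 or more of them, with Benjamini-Hochberg adjustment over all tested genes and a threshold of 0.05; intervals are 95%. The script was tested on simulated counts first. DESeq2 1.42.0, other scalings and filters, edgeR's exactTest, a fit over 12 libraries, a replicate block and leaving out libraries were alternatives. Each library is a pool of mice, so that p-values measure the spread between pools, and nothing says that P2- and P2+ pools came from different mice. The counts of Hdac1 and Gm10093 were added up, list counts and called list genes repeated under the alternatives, and CoREST paralogues set per longest transcript, after seeing the data.

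Named were the 6 members, up to 4 called genes per list with the largest change in P2+ against P2- and in KO against WT, and the 5 genes most like Gfi1 and Gfi1b by Pearson r of log2 CPM (prior count of 2). The members and lists were chosen with earlier results of these data known. Sequences came from RefSeq and GENCODE tables; protein sequences were not used here. Some genes that the lists or the naming rule would have held are not reported here.

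Same-numbered P2- and P2+ libraries deviated together from their group means (correlations of 0.39, 0.57 and 0.41 over 13272 genes), so that these numbers pair the samples. No other pair of groups met that rule. With 12 libraries of 10726098 to 14445026 counts, 3 counts stand for 0.208 to 0.286 CPM.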

Additional observations from a re-analysis of the deposited data

How the results depend on the processing

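Gfi1b kept its call under all 16 alternatives in P2+ against P2- (log2 fold change -0.96 to -0.63 over left-out libraries) and under all 15 in KO against WT (0.62 to 0.68), as did the count of 2 members called in P2+ against P2- (2 to 2 over left-out libraries). The other counts of members called moved by 1. In P2+ against WT, 1 was called, against 2 without the filter, with DESeq2 and in the fit over 12 libraries, 0 with edgeR's exactTest, and 0 to 1 over left-out libraries. In P2- against WT, 1 was called, against 2 with DESeq2 and in the fit over 12 libraries, and 0 to 2 over left-out libraries. In KO against WT, 1 was called, against 2 with relative log expression (RLE) scaling, without the filter, with DESeq2 and with the replicate block, and 1 to 2 over left-out libraries. In KO against P2-, 0 was called, against 1 with DESeq2. In KO against P2+, 2 were called, against 3 without the filter, where Gfi1 was tested too. The other causes were not tested. In KO against P2-, DESeq2 called 490 of all genes and the replicate block 102, against 203, and leaving out 1 library gave 42 (without KO replicate 2) to 409 (without P2- replicate 2), so that the shares of all genes called there rest on single libraries.

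With the replicate block, the count was 2 in P2+ against P2-, where the numbers pair the libraries, with Gfi1b at -0.78, and the block there changed no call of a member. Elsewhere libraries share only a number (same-number correlations of -0.09 to 0.16), and the block brought Gfi1b in P2+ against WT (adjusted p = 0.0461) and Rcor1 in KO against WT (adjusted p = 0.0393) past the threshold and took Rcor1 in P2+ against WT out (adjusted p = 0.0515).

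For the members, sign changes occurred only in differences that were not called. Among called genes of the pathway lists, Egr1 in KO against P2+ (-4.33) turned to 1.22 (adjusted p = 0.000139 in edgeR) without P2+ replicate 2. In P2+ against WT, Kdm1a was -0.0037 with total count scaling and -0.020 to 0.045 over left-out libraries, and Hdac1 was 0.00043 with the 5 CPM filter, 0.17 with Gm10093 added up and -0.048 to 0.034 over left-out libraries. With Gm10093 added up, Hdac1 was also 0.039 in P2- against WT and -0.081 in KO against P2-. Over left-out libraries Hdac1 ran from -0.018 to 0.15 in P2+ against P2-, -0.15 to 0.014 in P2- against WT, -0.033 to 0.010 in KO against WT, -0.034 to 0.13 in KO against P2- and -0.059 to 0.022 in KO against P2+. Hdac2 in KO against P2+ was -0.0041 with upper quartile scaling, -0.0020 with the 5 CPM filter and -0.028 to 0.084 over left-out libraries.

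Gfi1 had at most 43 counts per library, and its P2+ libraries differed beyond counting error (exact Poisson 95% intervals of 0.0830 to 0.780 CPM in replicate 3 and 2.16 to 4.02 CPM in replicate 2). The filter on low counts left Gfi1 untested in every comparison but P2+ against WT. What kept Gfi1 from being called there, and Kdm1a, Hdac1 and Hdac2 with the main settings, was not tested.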
